A study of Mus musculus with 8 samples.

Results

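Aminoacyl-tRNA synthetases, amino acid transporters and the transcription factor ATF4 with a set of its targets were compared between PD-1hi effector CD8 T cells from leukaemic mice given an antibody against the interleukin 10 receptor (anti-IL-10R) and those given an isotype control antibody. The set holds 36 genes chosen by symbol: 20 cytosolic synthetase genes, 2 scaffold genes of the synthetase complex, 8 transporter genes, and Atf4 with 5 of its targets. A row with exactly 1 gene symbol was found for 33 of them, out of 22180 genes with such a row. Of these, 32 passed the filter on dim genes (a mean over all 8 arrays of at least 5.24 on the log2 scale), among 12019 genes tested. Aars and Aimp2 were only in rows that name several genes, Dars had no row with 1 symbol, and these 3 were not analysed here.

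All animals were female C57BL/6 mice that had received murine CLL cells of the Eµ-TCL1 line. There the TCL1 oncogene, under a B cell enhancer, causes a disease used as a model of chronic lymphocytic leukaemia (CLL). No group without leukaemia was analysed here. Antibody was given from week 3 after the transplant for 2 weeks, as the series text has it, and spleens were taken at week 5. The gate for sorting was lineage-negative, TCRb+, CD8+, CD127low, CD44int-hi and PD-1hi. Each group has 4 arrays. The labels do not say that each came from its own animal, so the p-values rest on the spread from array to array, which may be technical. The comparison asks what blocking the receptor changed in the RNA of these cells. Levels below are the deposited log2 signals. Differences are anti-IL-10R minus isotype with the standard error (SE) of limma, and a gene rose or fell only where its Benjamini-Hochberg adjusted p over all tested genes was below 0.05.

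Synthetases join each amino acid to its tRNA and so supply the ribosome, and transporters such as the LAT1 heterodimer bring amino acids into the cell. When uncharged tRNA builds up, the kinase GCN2 phosphorylates the initiation factor eIF2, translation of the Atf4 message goes up, and ATF4 raises transcription of asparagine synthetase, transporters and many cytosolic synthetases. T cells increase this machinery when they are activated and grow.

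Isotype replicate 1 stood apart from the other arrays, and the counts over the set are therefore given with and without it. Over the tested genes its correlation with the others was 0.915 to 0.929 (Pearson's r over genes, not over replicates), against 0.962 to 0.986 among the other 7. Array medians over all rows were alike, 5.19 to 5.31. Among the sort markers, Pdcd1, Cd8a, Cd8b1 and Cd3e each had all anti-IL-10R arrays above all isotype arrays, though none passed the test (limma adjusted p from 0.106 to 0.184). Cd8a was 10.81 ± 0.08 (SD, n = 4) in isotype and 11.12 ± 0.02 in anti-IL-10R arrays, and Pdcd1 was 10.95 ± 0.40 and 11.45 ± 0.09. The summed linear signal of the 6 sort genes was 10895 to 13816 in isotype and 15436 to 15828 in anti-IL-10R arrays. Il7r, which encodes CD127, had means of 3.57 and 3.60, below the filter. It read 4.47 in isotype replicate 1 (rest of its group 3.08 to 3.48) and 4.34 in anti-IL-10R replicate 4 (rest of its group 3.27 to 3.41). Isotype replicate 1 had the lowest Pdcd1 level (10.34, where its group otherwise had 11.10 to 11.20) and a Foxp3 level of 7.97, against 5.08 to 5.95 in all other arrays. Of the other 3 CD4 and regulatory T cell markers, Cd4 was highest in this array (5.46, others 4.88 to 5.30), while Zbtb7b (6.08) and Cd40lg (4.27) lay within the range of the others. Its mean over 11 myeloid markers was 5.50 (others 4.98 to 5.17) and over 3 NK cell markers 6.64 (others 5.95 to 6.42), with Lyz2 at 6.66 (others 4.96 to 5.67), Cd14 at 5.01 (3.50 to 4.00) and Klrb1c at 5.29 (3.63 to 4.36). Of these markers, 8 of the 11 myeloid and 2 of the 3 NK cell ones lay below the filter, Cd14 and Klrb1c among them. In contrast, isotype replicate 1 had the lowest levels of the myeloid marker Cd68 (8.41, others 8.62 to 9.38) and the NK cell marker Eomes (10.13, others 10.22 to 10.67). Its summed linear signal lay within the range of the other arrays for the myeloid markers (793) and below it for the NK cell markers (1185). Of the 12 B cell markers with a row, 10 were lower in the anti-IL-10R group (45.3% of all tested genes were). Of these 12 markers, 7 lay below the filter, and none passed the test when no filter was used (smallest limma adjusted p = 0.393). Without Cd5, which T cells also express, their summed linear signal was 343 to 593 in isotype and 336 to 398 in anti-IL-10R arrays. The part of the sort genes and of these other cells' markers in the results was not tested, apart from a fit with the B cell markers given further on. In a bulk sample, fewer cells of a type and less RNA per cell cannot be told apart.

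The promoters are shown first, because ATF4 acts through a composite element that pairs a C/EBP with an ATF site. The RefSeq promoter table (GRCm38.p6, 250 bases before to 50 after a start site) has entries for 26 of the 36 genes, and for 23 of the 33 with a row. The core searched was TGATGNAA on either strand, with N any base, read as TTNCATCA when it lies on the opposite strand; no other motif was searched. It was present for 8 of the 23 (34.8%), against 2.82% of the 9439 tested genes with a promoter entry and 3.97% of all 32851 promoters. The set was chosen in part for known ATF4 targets, so a higher share was to be expected and is not a test. Of the 8, 3 belong to the group of Atf4 and its targets, and Slc1a4 lay below the filter and was not tested. The 8 matches follow as windows of 30 bases on the transcribed strand, 5′ to 3′, with the match in capitals, so that the sequence can be set beside each gene's change.
Gars: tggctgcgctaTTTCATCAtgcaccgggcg
Tars: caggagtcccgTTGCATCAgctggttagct
Iars: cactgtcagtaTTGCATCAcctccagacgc
Yars: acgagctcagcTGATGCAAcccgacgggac
Asns: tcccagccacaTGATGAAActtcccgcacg
Chac1: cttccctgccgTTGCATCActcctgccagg
Trib3: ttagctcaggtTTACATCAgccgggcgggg
Slc1a4: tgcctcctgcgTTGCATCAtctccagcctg
Counted from the start site, the first base of the match lies at -30 in Gars (chr6:55037960-55037989, plus strand), -15 in Tars (chr15:11399655-11399684, minus strand) and -23 in Asns (chr6:7693214-7693243, minus strand). In Iars (chr13:49682126-49682155, plus strand), Yars (chr4:129189895-129189924, plus strand) and Trib3 (chr2:152344028-152344057, minus strand) it lies just downstream of the start, at 8, 4 and 15. The Slc1a4 match (chr11:20332699-20332728, minus strand) begins at -4 and the Chac1 match (chr2:119351038-119351067, plus strand) farther upstream, at -193. The 7 tested genes with the core had differences from -0.52 (Gars) to -0.0013 (Chac1), median -0.23, and the 15 tested genes with an entry and no match had differences from -0.58 (Mars1) to 0.51 (Slc38a2), median -0.09. A match describes the letters only and is not evidence of binding.

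Cytosolic synthetase transcripts were mostly lower after IL-10R blockade. Of the 18 with a row, 15 had a negative difference, with a median of -0.24, and 2 fell: Gars, which charges glycine, and Mars1, which charges methionine and so also supplies the initiator tRNA. Over all 12019 tested genes 45.3% were lower and 54.7% higher, with a median difference of 0.03, and 1.3% fell and 1.23% rose, which together make 2.53%. Across the whole set of 32 tested genes the median difference was -0.16, 24 were lower, 8 were higher, 2 fell and 0 rose. At an unadjusted limma p below 0.05, 8 of the 32 were lower and 0 higher. At that threshold 1025 of all 12019 tested genes were lower and 1377 higher. Without isotype replicate 1, 7 of the 32 fell and 0 rose, with 26 lower and 6 higher and a median of -0.27. The 7 were Mars1, Gars, Rars, Cars, Iars, Slc7a5 and Asns. Of all tested genes 51.1% were then lower and 48.9% higher, 5.9% fell and 3.35% rose (9.25% in all). The groups then did not overlap for 14 of the 32, all lower, and for 14.2% (lower) and 11.3% (higher) of all tested genes. Leaving out any other single array brought the number that fell to 0.

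**Figure D1:**
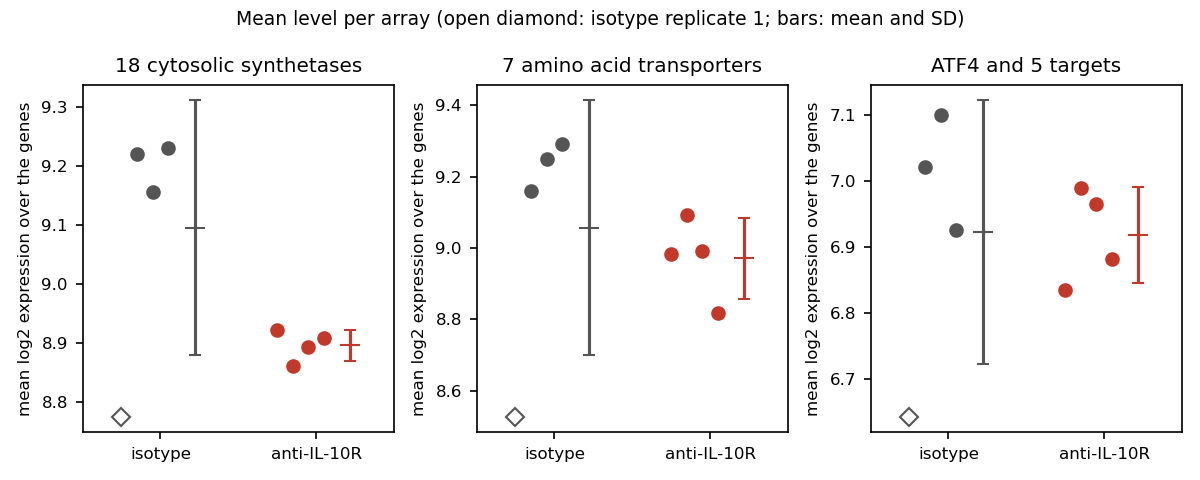
Mean log2 expression (vertical axis) of 18 cytosolic synthetases, 7 amino acid transporters, and Atf4 with 5 targets in each of the 4 isotype and 4 anti-IL-10R arrays; bars show the group mean and SD. For the synthetases the 3 isotype arrays other than replicate 1 lie at 9.15 to 9.23 and the anti-IL-10R arrays at 8.86 to 8.92, while isotype replicate 1, the open diamond, lies below all of them at 8.77.

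Per array, the mean over the 18 synthetases was 8.77 in isotype replicate 1 and 9.22, 9.15 and 9.23 in the other isotype arrays. It was 8.92, 8.86, 8.89 and 8.91 in the anti-IL-10R arrays. The anti-IL-10R arrays were thus close together, and the isotype group lay above them except for replicate 1, which lay below. This array was the lowest of its group for 24 of the 32 tested genes, the highest for 3, and below every anti-IL-10R array for 16. The spread reflected this, with a median SD over the genes of 0.25 in isotype and 0.14 in anti-IL-10R arrays.

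Gars (transcript cluster 17458771), a class II synthetase, read 10.97, 11.03, 11.03 and 11.11 in the isotype arrays and 10.42, 10.58, 10.56 and 10.50 in the anti-IL-10R arrays. All anti-IL-10R arrays were below all isotype arrays, and isotype replicate 1 lay close to its group. The gene fell by 0.52 ± 0.10 (SE), which is 1.43-fold lower (limma adjusted p = 0.0334). Groups that did not overlap, with anti-IL-10R lower, were found for 4 of the 32 tested genes and for 5.99% of all tested genes. The reverse order was found for 0 of the 32 and for 9.32% of all tested genes. Its adjusted p was 0.0105 without isotype replicate 1 and 0.0778 to 0.112 without any other single array. The 250 bases upstream of the Gars start site (chr6:55037751-55038000, plus strand) hold the core named above, in capitals, near their 3′ end.
Gars: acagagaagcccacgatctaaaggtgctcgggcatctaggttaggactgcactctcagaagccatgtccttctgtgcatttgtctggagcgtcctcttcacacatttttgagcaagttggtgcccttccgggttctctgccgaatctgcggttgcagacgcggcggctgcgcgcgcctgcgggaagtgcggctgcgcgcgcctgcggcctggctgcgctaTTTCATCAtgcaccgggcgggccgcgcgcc

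Mars1 (17245850), a class I synthetase of the multisynthetase complex, read 8.75, 8.57, 8.52 and 8.61 in the isotype arrays and 8.20, 8.07, 7.72 and 8.10 in the anti-IL-10R arrays. The groups did not overlap, and here isotype replicate 1 was the highest array. Mars1 fell by 0.58 ± 0.13 (SE), which is 1.5-fold lower (limma adjusted p = 0.0488). Its adjusted p was 0.0292 without isotype replicate 1 and 0.0789 to 0.13 without any other single array. With each array centred on its median the adjusted p was 0.0658. With the number in the sample titles as a block, both Mars1 (adjusted p = 0.0509) and Gars (0.0624) missed the threshold, and Rars (0.0462) and Slc7a5 (0.0372) passed it. Isotype replicate 1 and anti-IL-10R replicate 1, whose title numbers have no partner in the other group, do not enter the difference in that fit. The 250 bases upstream of the Mars1 start site (chr10:127311787-127312036, minus strand) are printed for comparison with Gars and hold 0 matches to the core.
Mars1: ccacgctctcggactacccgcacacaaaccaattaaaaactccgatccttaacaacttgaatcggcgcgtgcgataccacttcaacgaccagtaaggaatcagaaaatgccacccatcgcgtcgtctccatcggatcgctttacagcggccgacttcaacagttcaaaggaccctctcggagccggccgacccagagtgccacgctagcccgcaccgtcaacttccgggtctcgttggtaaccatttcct

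With the mean of the B cell markers as a covariate, Gars had a difference of -0.49 (limma adjusted p = 0.165) and Mars1 one of -0.61 (adjusted p = 0.176), and 0 of the 32 genes passed the test. That mean was taken over all 12 B cell markers with a row, Cd5 and the 7 below the filter included.

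Of the 10 synthetases counted here as class I, the double enzyme Eprs among them, 8 were lower and 1 fell, with a median of -0.24. Without isotype replicate 1, 4 of them fell. Of all tested genes 1.3% fell over all 8 arrays and 5.9% without that array. Rars, the arginine enzyme of the same complex, read 9.13, 9.31, 9.44 and 9.39 in isotype and 9.07, 8.82, 8.87 and 8.68 in anti-IL-10R arrays. The groups did not overlap, with a difference of -0.46 ± 0.12 that missed the threshold (limma adjusted p = 0.0800) and passed it without isotype replicate 1 (-0.52, adjusted p = 0.0229). Iars, which charges isoleucine, read 8.14, 8.50, 8.68 and 8.56 in isotype and 8.29, 7.97, 8.23 and 7.99 in anti-IL-10R arrays. Here isotype replicate 1 lay among the anti-IL-10R arrays and the others above them all, and the difference of -0.35 ± 0.14 (adjusted p = 0.219) became -0.46 without that array (adjusted p = 0.0375).

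Cars, the cysteine enzyme, had -0.31 ± 0.14 (limma adjusted p = 0.255) over all arrays and -0.44 (adjusted p = 0.0178) without isotype replicate 1. For Cars that array (6.76) lay below all anti-IL-10R arrays (6.80 to 6.92), and the other isotype arrays lay above them (7.26 to 7.33). The differences were -0.26 for Vars (valine), -0.22 for Yars (tyrosine), -0.17 for Eprs (glutamate and proline in 1 protein) and -0.15 for Wars (tryptophan), and none of these passed the test in either fit. Qars, the glutamine enzyme, had the smallest difference of its class. It read 10.43, 10.78, 10.76 and 10.72 in isotype and 10.83, 10.78, 10.65 and 10.72 in anti-IL-10R arrays, overlapping groups with a difference of 0.08 ± 0.11 (adjusted p = 0.758). Lars, the leucine enzyme, had a difference of 0.56 ± 0.45 that rested on isotype replicate 1, at 5.61 where the rest of the group had 7.60 to 7.95, and was 0.02 without it.

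**Figure D2:**
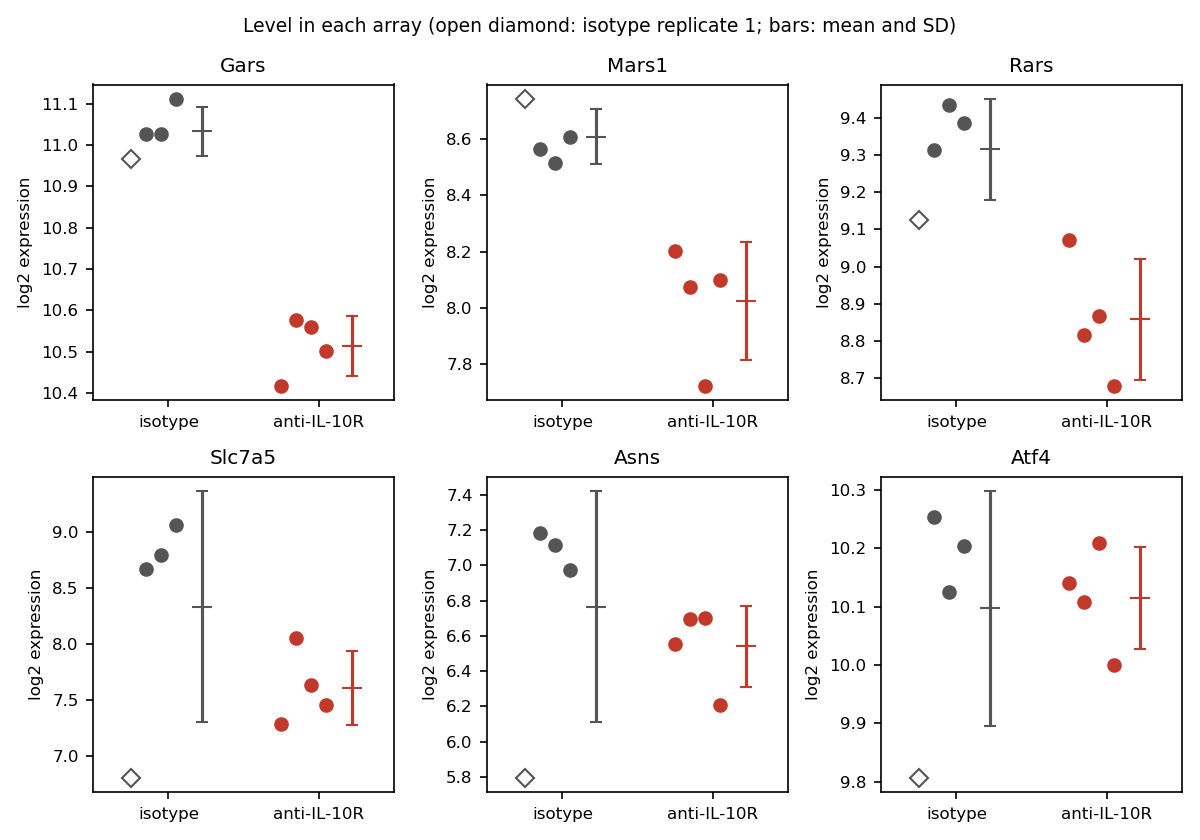
Log2 expression (vertical axes) in each of the 4 isotype and 4 anti-IL-10R arrays for Gars, Mars1, Rars, Slc7a5, Asns and Atf4, 1 panel a gene with its own scale; bars give the group mean and SD. The groups do not overlap for Gars, Mars1 and Rars, and the open diamond, isotype replicate 1, lies below all other arrays for Slc7a5 (6.80), Asns (5.79) and Atf4 (9.81).

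Class II synthetases showed the same direction in 7 of 8 with a row, with a median of -0.26. Of these 1 fell (Gars, above), beside 1.3% of all tested genes. Tars, the threonine enzyme, read 9.25, 9.20, 9.23 and 9.26 in isotype and 8.98, 8.76, 8.66 and 9.07 in anti-IL-10R arrays. The isotype arrays lay within a narrow band above all anti-IL-10R arrays, with a difference of -0.37 ± 0.12 that did not pass the test (limma adjusted p = 0.122, and 0.0833 without isotype replicate 1). Farsb, the beta chain of the phenylalanine enzyme, read 8.88, 9.09, 9.07 and 9.35 in isotype and 8.62, 8.95, 8.69 and 8.72 in anti-IL-10R arrays. The groups overlapped through isotype replicate 1, and the difference was -0.35 ± 0.13 (adjusted p = 0.173). Its partner Farsa, the alpha chain, had -0.19 over all arrays and -0.42 without isotype replicate 1, and neither passed.

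Kars, the lysine enzyme, had the smallest difference of its class, at 10.46, 10.68, 10.61 and 10.82 in isotype and 10.63, 10.68, 10.56 and 10.60 in anti-IL-10R arrays. Its groups overlapped, with a difference of -0.03 ± 0.11 (limma adjusted p = 0.915). Nars (asparagine) had a difference of -0.33, Hars (histidine) one of -0.11 and Sars (serine) one of 0.17, none past the test. The 7 synthetases of the multisynthetase complex that had a row showed a median difference of -0.17 with 1 that fell. The 11 outside the complex with a row had a median of -0.26 with 1 that fell, where 1.3% of all tested genes fell.

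Aimp1 encodes a scaffold of that complex. It read 8.63, 9.50, 9.12 and 9.37 in isotype and 9.10, 9.17, 8.95 and 8.95 in anti-IL-10R arrays. Isotype replicate 1 was the lowest of all 8, and the difference was -0.11 ± 0.18 (limma adjusted p = 0.776), or -0.29 without that array. A second row for the gene, dimmer than the first, gave -0.35.

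**Figure D3:**
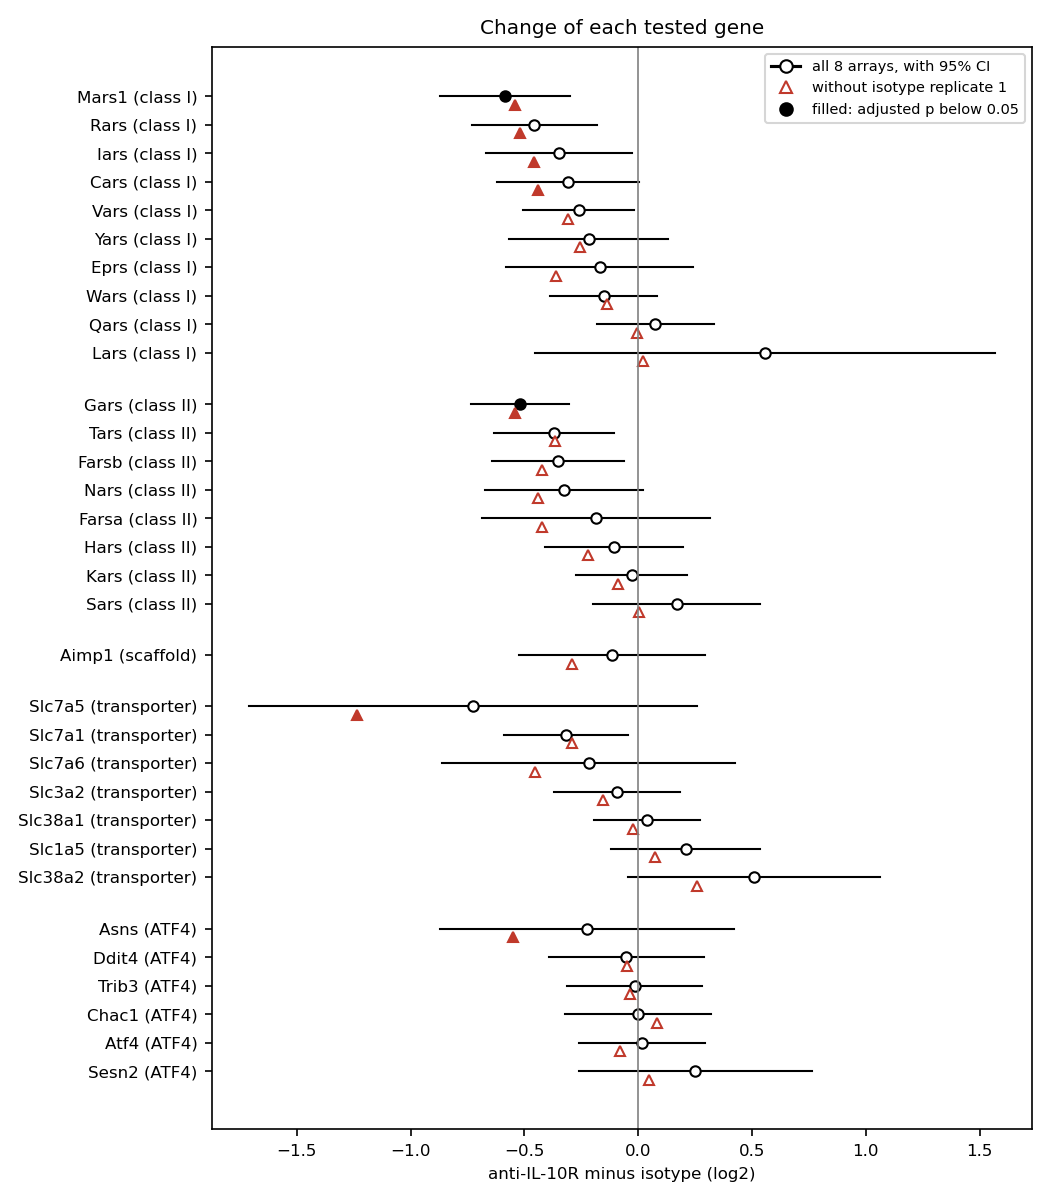
Difference in log2 expression, anti-IL-10R minus isotype (horizontal axis), with its 95% confidence interval from limma for the 32 tested genes, grouped by role, with the difference without isotype replicate 1 as a triangle; filled marks have an adjusted p below 0.05. Gars (-0.52) and Mars1 (-0.58) passed the test over all 8 arrays, and the differences of 26 of the 32 genes were lower when isotype replicate 1 was left out.

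Amino acid transporters went in both directions and none passed the test over all 8 arrays: 4 of the 7 tested were lower and 3 higher, with a median of -0.09. Slc7a5, the LAT1 subunit that carries large neutral amino acids, read 6.80, 8.67, 8.80 and 9.06 in isotype and 7.29, 8.05, 7.63 and 7.46 in anti-IL-10R arrays. Isotype replicate 1 was below every anti-IL-10R array and the other 3 isotype arrays were above them all. The difference was -0.73 ± 0.44 over all arrays (limma adjusted p = 0.399), and without isotype replicate 1 the gene fell by 1.24, or 2.36-fold (adjusted p = 0.00754). Slc3a2, the heavy chain that pairs with LAT1, had a difference of -0.09, or -0.16 without that array, and passed in neither fit.

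Slc38a2 (SNAT2), a carrier of small neutral amino acids, read 7.55, 8.52, 8.55 and 8.59 in isotype and 8.82, 8.997, 9.03 and 8.40 in anti-IL-10R arrays. In 3 of 4 anti-IL-10R arrays the level exceeded the whole isotype group, but the difference of 0.51 ± 0.25 did not pass the test (limma adjusted p = 0.289) and was 0.26 without isotype replicate 1. Slc7a1, a carrier of arginine and lysine, read 9.33, 9.05, 9.31 and 9.33 in isotype and 9.11, 8.73, 8.96 and 8.95 in anti-IL-10R arrays. Isotype replicate 2 lay within the anti-IL-10R range and the other isotype arrays above it, and the difference was -0.32 ± 0.12 (adjusted p = 0.187). Slc38a1 (SNAT1), a glutamine carrier, had a difference near 0, at 10.15, 10.36, 10.44 and 10.41 in isotype and 10.34, 10.36, 10.40 and 10.41 in anti-IL-10R arrays, a difference of 0.04 ± 0.10. Slc7a6 had a difference of -0.22 and Slc1a5 (ASCT2), another glutamine carrier, one of 0.21. Slc1a4 (ASCT1), with a mean of 4.97, was below the filter; its difference was 0.20 ± 0.20 when no filter was used. The mean nearest above the filter was that of Trib3, at 5.29.

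Atf4 messenger RNA had overlapping levels in the groups. It read 9.81, 10.25, 10.12 and 10.20 in isotype and 10.14, 10.11, 10.21 and 10.001 in anti-IL-10R arrays, with isotype replicate 1 lowest, a difference of 0.02 and a 95% interval of -0.26 to 0.30 (limma adjusted p = 0.956). ATF4 is controlled largely through translation of its message, which an array does not measure. Of the 6 genes of this group 4 were lower and none passed the test, also at an unadjusted p below 0.05, and the median was -0.0086.

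Asns, asparagine synthetase, read 5.79, 7.18, 7.12 and 6.97 in isotype and 6.56, 6.70, 6.70 and 6.21 in anti-IL-10R arrays. Isotype replicate 1 was below all anti-IL-10R arrays and the other isotype arrays were above them. Its difference was -0.23 ± 0.29 over all arrays (limma adjusted p = 0.710), and without isotype replicate 1 Asns fell by 0.55 (adjusted p = 0.0364). Sesn2, an inhibitor of mTORC1 and sensor of leucine, read 6.29, 6.97, 7.49 and 6.87 in isotype and 6.92, 7.41, 7.18 and 7.11 in anti-IL-10R arrays. The groups overlapped, with a difference of 0.25 ± 0.23 (adjusted p = 0.592).

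The stress-response targets Ddit4, Chac1 and Trib3 had differences near 0. Ddit4, another inhibitor of mTORC1, read 6.92, 6.56, 7.15 and 7.03 in isotype and 6.70, 6.79, 7.11 and 6.86 in anti-IL-10R arrays, a difference of -0.05 ± 0.15. Chac1, which degrades glutathione, read 5.82, 5.72, 5.26 and 5.44 in isotype and 5.54, 5.51, 5.44 and 5.74 in anti-IL-10R arrays, a difference of -0.0013 ± 0.14. Trib3, a pseudokinase, had a difference of -0.02. All 3 pairs of groups overlapped.

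Further genes of the pathway, 105 tested in 7 lists, gave 2 that fell and 2 that rose, beside 1.3% and 1.23% of all tested genes. Among 18 further ATF4 targets and partners, Shmt2, the mitochondrial serine enzyme of 1-carbon metabolism, read 10.14, 10.63, 10.32 and 10.66 in isotype and 9.61, 9.80, 9.78 and 9.60 in anti-IL-10R arrays. Its groups did not overlap and it fell by 0.74 ± 0.14, or 1.66-fold (limma adjusted p = 0.0342). Among 11 enzymes of amino acids and polyamines, Srm, spermidine synthase, read 9.02, 9.45, 9.35 and 9.55 in isotype and 8.79, 8.64, 8.71 and 8.54 in anti-IL-10R arrays. These groups were also apart, and Srm fell by 0.67 ± 0.13 (adjusted p = 0.0382).

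Slc38a9, an arginine sensor of the lysosome and 1 of 16 further transporters tested, read 7.07, 6.78, 7.26 and 6.71 in isotype and 7.49, 7.56, 7.62 and 7.66 in anti-IL-10R arrays. It rose by 0.63 ± 0.14 (limma adjusted p = 0.0491). Sesn1, a sestrin related to Sesn2 and 1 of 27 genes of amino acid sensing, read 6.11, 6.38, 6.12 and 6.41 in isotype and 6.73, 7.17, 6.89 and 6.88 in anti-IL-10R arrays. All its anti-IL-10R arrays were above all isotype arrays, and it rose by 0.66 ± 0.13, or 1.58-fold (adjusted p = 0.0379). Of the 27 sensing genes 18 were higher (54.7% of all tested genes were), with a median of 0.14. With isotype replicate 1 left out, 15 of the 27 were higher (48.9% of all tested genes were), with a median of 0.02. Without isotype replicate 1, 14 of the 105 fell and 2 rose, where 5.9% of all tested genes fell and 3.35% rose; on leaving out any other single array Shmt2, Srm, Slc38a9 and Sesn1 each missed the threshold.

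**Figure D4:**
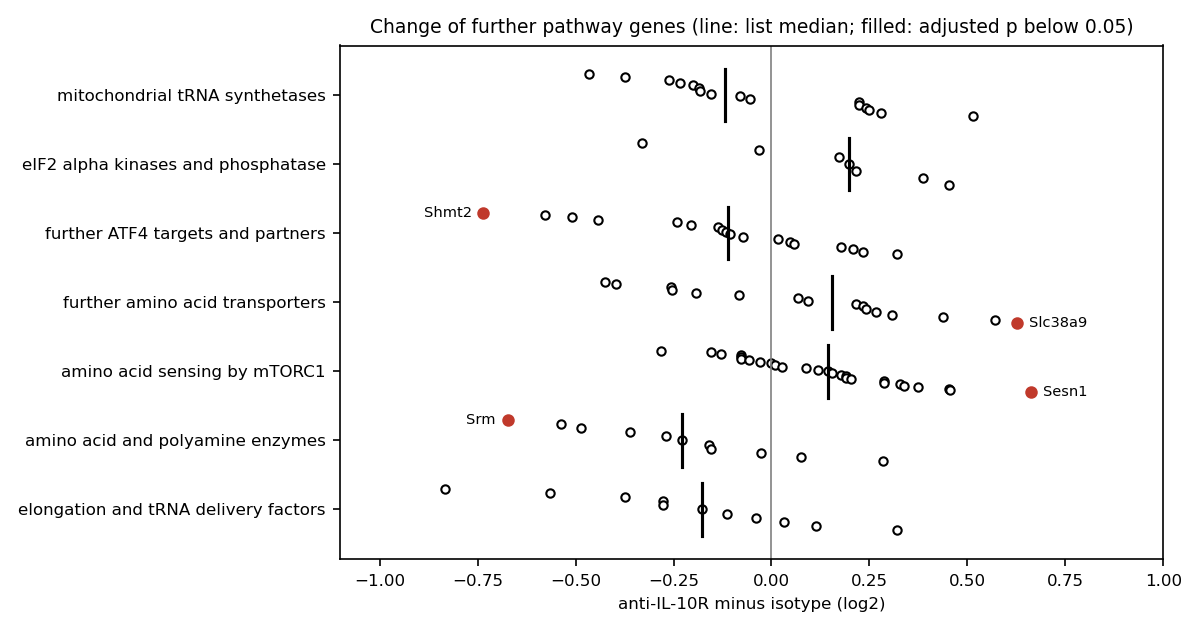
Difference in log2 expression, anti-IL-10R minus isotype (horizontal axis), for the tested genes of 7 further lists of the pathway (vertical axis), 1 point a gene and list (Xpot is in both the ATF4 and the elongation list), a line at each list's median, and filled points for adjusted p below 0.05. The filled points are Shmt2 and Srm on the negative side and Slc38a9 and Sesn1 on the positive side.

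The other lists held no gene past the test over all 8 arrays. Of 16 mitochondrial synthetases 10 were lower, with a median of -0.12; the smallest p-values were those of Yars2 (-0.47 ± 0.13, limma adjusted p = 0.0828) and Rars2 (-0.38 ± 0.13, adjusted p = 0.152). Among 7 eIF2 kinase and phosphatase genes the median was 0.20, with Eif2ak3, the kinase PERK, at 0.45 ± 0.16 (adjusted p = 0.166) and Gcn1, the activator of GCN2, at -0.33 ± 0.12 (adjusted p = 0.167). Among 11 elongation and tRNA delivery factors the median was -0.18. Eef1e1, the third scaffold of the multisynthetase complex, read 8.84, 9.23, 9.25 and 9.07 in isotype and 8.28, 8.79, 8.43 and 7.55 in anti-IL-10R arrays. Its groups did not overlap, with a difference of -0.83 ± 0.24 (adjusted p = 0.0899, and 0.0448 without isotype replicate 1). Eif5a, the elongation factor that carries hypusine, had -0.37 ± 0.11 (adjusted p = 0.0913). Myc, a transcription factor of growth genes, read 8.46, 8.78, 8.87 and 8.59 in isotype and 8.39, 8.11, 8.11 and 7.73 in anti-IL-10R arrays, a difference of -0.59 ± 0.16 (adjusted p = 0.0799, and 0.0296 without isotype replicate 1).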

How the data were processed

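RNA from sorted splenic CD8 T cells was amplified and measured on 8 arrays of the GeneChip Mouse Gene 2.0 ST type, 4 a group. The values are log2 signals as deposited by the authors; the submitters' processing notes name Affymetrix Power Tools, and their background correction and normalization were not found in these notes or the labels. Of 41345 rows, 23521 have 1 gene symbol in the platform annotation, 1814 several and 16010 no entry. For each gene the brightest row over all arrays was kept, synthetases with or without a final 1 in the symbol. Genes with a mean of at least 5.24, the median of all row means, were tested with limma 3.58.1 (R 4.3.3; lmFit and eBayes, groups only), with Benjamini-Hochberg adjustment over all 12019. The fit was tested on simulated data. The number of arrays limits the precision.

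The genes and lists were chosen with earlier results of these data known. Named are all 36 genes. Given array by array are genes past the threshold and, in each role, the 3 with the smallest p and the 1 with the smallest change, and Myc. In further lists, genes past the threshold or else the 2 with the smallest p are named. Array values of Atf4 and Eef1e1 were added after they were seen. The labels disagree on the interval between doses, which was not used. Alternatives covered the filter, scaling, choice of row, variance model, array weights, a B cell marker covariate, blocks, thresholds and leaving out each array.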

Additional observations from a re-analysis of the deposited data

Results flagged for a closer look

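In 10 of 84 groups of 4 arrays, 1 array lay far from the other 3 (Dixon's test at the 95% level, which flags about 1 in 20 groups by chance). For 7 of the 10 it was isotype replicate 1, always the lowest: Cars at 6.76 (others 7.26 to 7.33), Lars at 5.61 (7.60 to 7.95), Farsa at 7.84 (8.75 to 8.87), Sars at 8.67 (9.26 to 9.37), Slc1a5 at 9.98 (10.49 to 10.54), Slc38a2 at 7.55 (8.52 to 8.59) and Asns at 5.79 (6.97 to 7.18). The same array had the highest Foxp3, Lyz2, Cd14 and Klrb1c levels of the 8 and the lowest Pdcd1, Cd68 and Eomes levels. Of these, Cd14 and Klrb1c lay below the filter. The part of any of the markers named here in the values above was not tested.

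The other 3 were isotype replicate 2 for Yars, at 8.12 (7.56 to 7.61), and for Slc7a1, at 9.05 (9.31 to 9.33), and isotype replicate 3 for Rars2, at 7.91 (7.45 to 7.52).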

How the results depend on the processing

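The direction was steadier than the calls: 23 of the 32 tested genes kept their sign in every alternative run for them (18, or 17 for Asns, which the stricter filter drops), 19 lower and 4 higher, and 0 rose in any. The number that fell was 2, but 0 with the B cell marker covariate, without the filter, with the replicate block and at an adjusted p below 0.01; it was 3 at 0.1, 3 with quantile normalization, 10 with array weights, and 0 to 7 on leaving out 1 array. With the title-number block it stayed at 2, but these were Rars and Slc7a5 in place of Gars and Mars1. The title numbers of isotype replicate 1 and anti-IL-10R replicate 1 have no partner in the other group. That fit therefore rests on the other arrays. Arrays with the same replicate number had correlations of -0.05, 0.12, 0.02 and -0.16 between their deviations from their group means. The last 3 of these pairs also share a title number. The isotype mean includes the outlying replicate 1, so these correlations cannot tell whether the arrays were paired. Gars had adjusted p from 0.00478 to 0.165 and Mars1 from 0.0149 to 0.176 (limma).

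Of the further genes, 2 fell, but 0 with the B cell covariate, without the filter and with the replicate block, 13 with array weights, 7 centred, 8 with quantile normalization, 4 with the title-number block and 0 to 14 on leaving out 1 array. The 2 that rose became 0 with the covariate, without the filter and with the replicate block, 1 centred and with quantile normalization, the stricter filter, the title-number block and trended variance, and 0 to 2 on leaving out 1 array. The ATF4 core with C fixed was found in 6 promoters in place of 9 of 26.

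The sign turned for 9 genes, whose differences over all 8 arrays ran from -0.11 (Aimp1) to 0.17 (Sars). The title-number block sets aside isotype replicate 1 and anti-IL-10R replicate 1. The array weights gave isotype replicate 1 a weight of 0.14, against 0.86 to 1.80 for the others. The cause was not tested further. With the title-number block, values were -0.088 for Atf4, 0.089 for Chac1, 0.0062 for Ddit4, -0.033 for Qars, -0.026 for Sars, -0.012 for Slc38a1 and 0.0065 for Trib3. With array weights, Atf4 was -0.049, Chac1 0.054 and Slc38a1 -0.018; centred, Atf4 was -0.025 and Slc38a1 -0.0040; with quantile normalization, -0.055 and -0.031; with the covariate, Atf4 was -0.034 and Ddit4 0.188. On leaving out 1 array, values ran from -0.29 to 0.0026 for Aimp1, -0.079 to 0.070 for Atf4, -0.10 to 0.085 for Chac1, -0.17 to 0.025 for Ddit4, -0.088 to 0.030 for Kars, -0.0047 to 0.11 for Qars, -0.023 to 0.072 for Slc38a1 and -0.10 to 0.040 for Trib3.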
